A study of Mus musculus with 9 samples.

Results

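The genes described here are 8 genes of fatty acid uptake and of the program run by the nuclear receptor PPAR-alpha, namely Fabp1, Fabp2, Cd36, Ppara, Cpt1a, Pdk4, Angptl4 and Creb3l3. They were taken from a table of 31685 genes by their Ensembl identifiers, and all 8 were present and passed the filter on low values. The study asked how intravenous immunoglobulin (IVIg), pooled human IgG, acts on the irradiated intestine, and sequenced jejunal RNA of 9 wild-type C57BL/6J mice, 3 in each of 3 groups. The mice were male and 6 to 8 weeks old, and the labels put every library in the same batch. Control mice had no treatment. The TAI group received total abdominal irradiation, a single 12 Gy X-ray dose at 75 cGy/min under anaesthesia, with the rest of the body shielded, and was given PBS according to the methods. The TAI/IVIg group received the same irradiation and 500 mg/kg of IVIg into a vein within 1 h of it, with a repeat every 3 days. Tissue was taken on day 3, and whether a repeat injection came before it is not stated. There was no group given IVIg without irradiation, and whether the control mice were anaesthetised or injected is not stated either.

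Enterocytes, the absorptive cells of the small intestine, take up fatty acids from the gut lumen and carry them through the cytosol on fatty acid binding proteins, largely towards triglyceride and lipoprotein assembly. PPAR-alpha is a nuclear receptor that fatty acids bind and that, paired with RXR, switches on genes for their binding, uptake and oxidation. Its classic targets include the mitochondrial gatekeeper Cpt1a, the kinase Pdk4, which holds back glucose oxidation, and the secreted lipase inhibitor Angptl4. Creb3l3 encodes CREB-H, a membrane-bound transcription factor of liver and small intestine that is released by proteolysis and acts on lipoprotein and fasting genes together with PPAR-alpha.

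Values are FPKM, the fragments of a gene scaled to the length of its exons and to the depth of the library, so that levels of different genes can be set side by side. The libraries held from 16282129 to 18241963 reads (median 17310189). Groups were compared with limma on log2(FPKM + 1) over the 13056 genes that reached 1 FPKM in 3 or more mice, with p-values adjusted over all of these by the Benjamini-Hochberg method. Each log2 fold change below is on that scale, where low genes appear to change less than they do. A gene is called where its adjusted p is under 0.05.

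Of the 8 genes, Fabp1, Fabp2, Cd36 and Creb3l3 rose and Cpt1a and Angptl4 fell in the TAI mice against the control mice, while Ppara and Pdk4 did not pass the test. The 4 genes called higher and 2 called lower stand beside a background of 8.81% of all genes tested called higher and 26.1% called lower. That background depends on single mice: the 1150 higher calls became 698 without TAI mouse 1, and the 3411 lower calls became 1645 without TAI mouse 1, 1768 without control mouse 2 and 1910 without control mouse 3. The same 6 genes passed, in the same directions, in TAI/IVIg against control, where 9.06% of all genes tested were called higher and 37.4% lower. These shares of all genes tested are also the background for the counts of every list below in this fit. With library medians set equal, the background was 1817 of 13056 genes called higher and 1687 lower in TAI against control. In TAI/IVIg against control it was then 2707 higher and 1994 lower. Both comparisons use the same 3 control mice. In TAI/IVIg against TAI, 0 of the 8 genes and 0% of all genes tested were called by limma. At an unadjusted p under 0.05, 1 of the 8 (Fabp1) and 12.9% of all genes tested differed. With no filter on low values 4 genes of the whole table were called, all lower, with a replicate block 3, and with voom on the recovered reads 0. The median log2 fold change of the 8 genes was 0.98, 0.87 and -0.03 in the 3 comparisons in that order. Over all genes tested it was -0.235, -0.39 and -0.13. In bulk tissue, fewer cells of a type and less RNA per cell cannot be told apart, and this holds for every level given here.

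**Figure D1:**
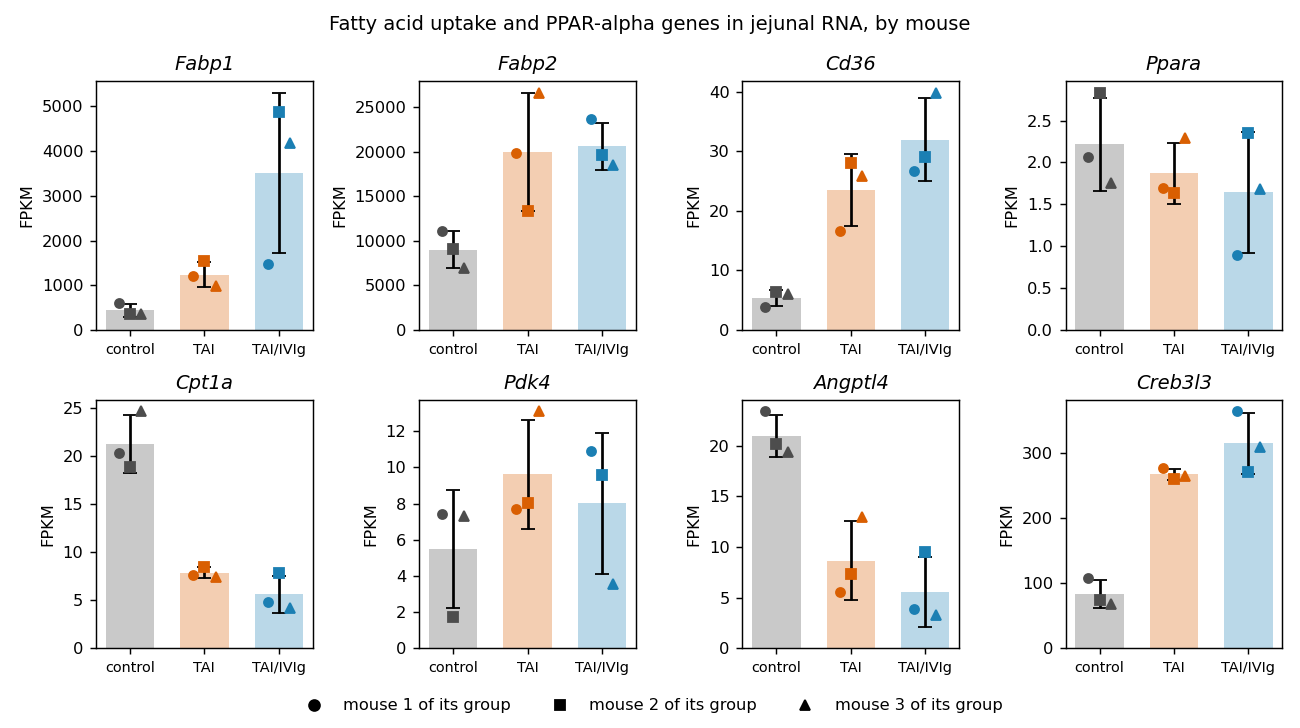
FPKM (linear axes from 0) of the 8 genes in each of the 9 mice, by group; bars show the mean of 3 mice, error bars the SD, and the symbol the mouse's number within its group. Fabp1, Fabp2, Cd36 and Creb3l3 are higher and Cpt1a and Angptl4 lower in all irradiated mice than in any control mouse, and Ppara overlaps in all groups.

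Sequence around annotated transcription starts of the genes was examined for the element that PPAR-alpha and RXR bind, a direct repeat of AGGTCA with 1 base between the copies. RefSeq (GRCm38.p6) gave 8 promoters for 7 of the genes, each running from 250 bases before the transcription start to 50 bases after it. These starts can lie inside the gene coordinates given below, which come from another annotation. The windows printed for Cd36 and Cpt1a lie wholly inside those coordinates, and that for Fabp1 in part. Angptl4 was not matched. The full repeat AGGTCANAGGTCA, on either strand, was in 0 of the 8 promoters and in 0.0396% of all 32851 promoters. A looser form, AGGNCANAGGNCA, was in 1 of the 8, that of Fabp1, and in 0.381% of all promoters. The single element AGGTCA, which was added after the other searches and overlaps the repeats, was in 4 of the 8, those of Fabp1, Cd36 and Cpt1a and 1 of 2 of Creb3l3, and in 16.3% of all promoters. The 250 bases upstream of the start are printed for Fabp1, which holds the looser repeat, and for Cd36 and Cpt1a, which hold a single element and moved in opposite directions. They run 5′ to 3′ on the gene's strand, and capitals mark the matches, all of which lie on the opposite strand.
Fabp1, chr6:71199629-71199878, plus strand: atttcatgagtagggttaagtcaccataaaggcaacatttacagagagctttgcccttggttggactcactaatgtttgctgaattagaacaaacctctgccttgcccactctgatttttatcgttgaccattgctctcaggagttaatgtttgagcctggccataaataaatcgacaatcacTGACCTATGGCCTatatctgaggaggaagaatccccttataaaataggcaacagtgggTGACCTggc
Cd36, chr5:17835897-17836146, minus strand: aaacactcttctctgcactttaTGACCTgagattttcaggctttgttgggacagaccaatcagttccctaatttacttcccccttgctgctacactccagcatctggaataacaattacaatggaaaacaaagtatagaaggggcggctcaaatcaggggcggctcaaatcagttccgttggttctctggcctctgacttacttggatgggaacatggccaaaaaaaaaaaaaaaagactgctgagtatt
Cpt1a, chr19:3323051-3323300, plus strand: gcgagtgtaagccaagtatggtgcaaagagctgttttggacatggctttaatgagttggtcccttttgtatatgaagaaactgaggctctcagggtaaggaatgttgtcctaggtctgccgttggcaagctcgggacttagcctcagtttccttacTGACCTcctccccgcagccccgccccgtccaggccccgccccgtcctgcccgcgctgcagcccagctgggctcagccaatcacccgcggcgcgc
In Fabp1 the looser repeat TGACCTATGGCCT lies 67 to 55 bases before the start, and another single element lies 9 to 4 bases before it. The element of Cd36 lies 228 to 223 bases before its start, and that of Cpt1a 94 to 89 bases before. The element of Creb3l3 lies 202 to 197 bases before 1 of its 2 starts. A match of letters is a description of the window and not evidence of a bound site.

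Fabp1 (ENSMUSG00000054422, GRCm38 chr6:71199827-71205023, plus strand) encodes the liver-type fatty acid binding protein, which in the gut is made by enterocytes of the proximal small intestine. Its level was 612, 350 and 349 FPKM in control mice 1 to 3, 1201, 1536 and 977 FPKM in TAI mice 1 to 3, and 1477, 4870 and 4182 FPKM in TAI/IVIg mice 1 to 3. All irradiated mice lay above all control mice, and TAI/IVIg mice 2 and 3 lay far above every other mouse, while TAI/IVIg mouse 1 lay within the range of the TAI mice. The mean rose from 437 ± 152 FPKM (SD, n = 3) in control to 1238 ± 281 FPKM (SD, n = 3) in TAI, 2.83 times as high, a log2 fold change of 1.53 (SE 0.44, limma adjusted p = 0.0277). In TAI/IVIg it was 3509 ± 1793 FPKM (SD, n = 3), 8.03 times the control mean, a log2 fold change of 2.88 (SE 0.44, limma adjusted p = 0.00155). Between TAI/IVIg and TAI the log2 difference was 1.35 (95% interval 0.35 to 2.36), with an unadjusted p of 0.014 and a limma adjusted p of 0.354, and the mice overlapped. Over the 17 alternative settings that adjusted p ran from 0.0645 to 0.976. The call of TAI against control was lost, with adjusted p from 0.079 to 0.0869, when control mouse 2, control mouse 3, TAI mouse 1 or TAI mouse 2 was left out, and with no filter on low values (0.077).

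Fabp2 (ENSMUSG00000023057, chr3:122895072-122899506, plus strand) encodes the intestinal fatty acid binding protein, a product of the villus enterocyte, and was the most abundant of the 8 genes in every mouse. It stood at 11125, 9034 and 6932 FPKM in the control mice, 19894, 13342 and 26628 FPKM in the TAI mice, and 23638, 19673 and 18562 FPKM in the TAI/IVIg mice. Between 0.669% and 2.57% of all reads of a library came from it. Every irradiated mouse was above every control mouse, and the TAI mice spread so widely that they enclosed all TAI/IVIg mice. The mean rose from 9030 ± 2097 FPKM to 19955 ± 6643 FPKM in TAI and 20624 ± 2668 FPKM in TAI/IVIg (SD, n = 3 each). The log2 fold changes were 1.11 (SE 0.33, limma adjusted p = 0.0298) and 1.21 (SE 0.33, limma adjusted p = 0.0165). For TAI/IVIg against TAI it was 0.10 with a 95% interval from -0.65 to 0.84 (limma adjusted p = 0.911). The call in TAI was lost without control mouse 2, control mouse 3, TAI mouse 1 or TAI mouse 3 (adjusted p from 0.0698 to 0.108), and that in TAI/IVIg without TAI/IVIg mouse 1 (adjusted p = 0.0595). Quantile normalization ended both calls, with a log2 fold change of 0.39 in each (adjusted p = 0.156 and 0.157), and so did using no filter (adjusted p = 0.265 and 0.196). Quantile normalization gives genes of the same rank the same value in every library, which limits how far so abundant a gene can move. With the replicate number as a block, which pairs control and TAI mice, the adjusted p in TAI was 0.0516, and in a fit of the 6 control and TAI mice 0.054.

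None of the other fatty acid binding protein genes tested was called higher. Of 8 listed, 6 were in the table and 4 were tested, with 0 higher and 1 lower in TAI against control, and 0 higher and 2 lower in TAI/IVIg against control. Fabp6, the bile acid binding protein of the distal small intestine, was at 7415, 8177 and 7326 FPKM in the control mice, below Fabp2 in mice 1 and 2 and above it in mouse 3. It was at 1372, 1874 and 3529 FPKM in the TAI mice and at 1351, 208 and 229 FPKM in the TAI/IVIg mice. The 3 groups of mice did not overlap, and the lowest values were those of TAI/IVIg mice 2 and 3, which had the highest Fabp1. The log2 fold change of Fabp6 was -1.87 in TAI against control (SE 0.66, limma adjusted p = 0.0549) and -4.25 in TAI/IVIg against control (SE 0.66, limma adjusted p = 0.00161). Against TAI it was -2.38 (unadjusted p = 0.00587, limma adjusted p = 0.353). The ratio of Fabp1 to Fabp6 FPKM was 0.0428 to 0.0825 in the control mice, 0.277 to 0.875 in the TAI mice, 1.09 in TAI/IVIg mouse 1, and 23.4 and 18.3 in TAI/IVIg mice 2 and 3. Fabp7 fell from 1.13 ± 0.129 to 0.478 ± 0.0432 FPKM (SD, n = 3) in TAI against control (log2 fold change -0.53, SE 0.17, limma adjusted p = 0.0379). It lay near the filter of 1 FPKM, and its call was lost at equal library medians (limma adjusted p = 0.124). It was also lost with a pseudocount of 0.1, with no filter, with voom, and with any control or TAI mouse left out. Fabp4, the adipocyte member, did not pass (0.78, limma adjusted p = 0.312). It was at 61.8 FPKM in TAI mouse 3, at 4.82 FPKM in TAI/IVIg mouse 3 and at 12.1 to 16.0 FPKM in the other mice.

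**Figure D2:**
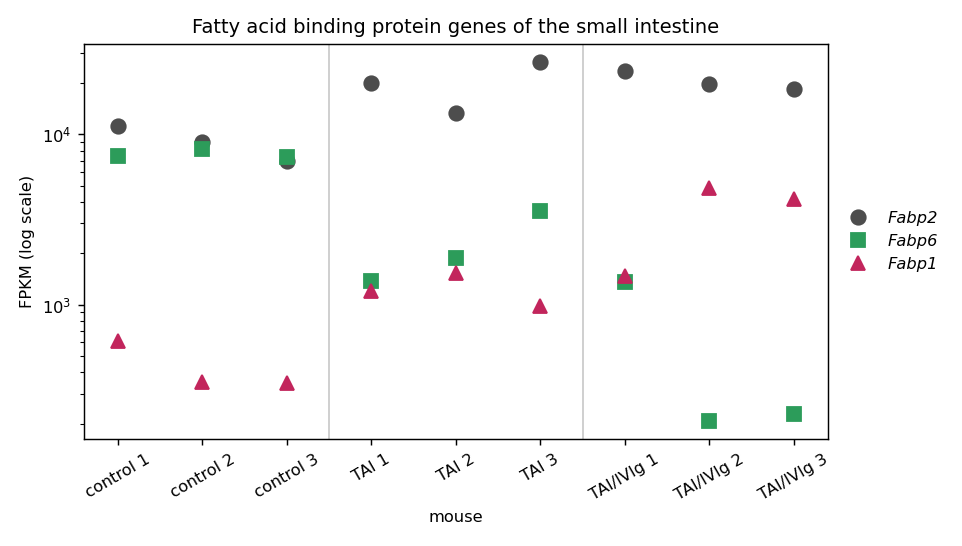
FPKM on a log axis of Fabp1, Fabp2 and Fabp6 in each mouse, with grey lines between the groups. Fabp6 is closest to Fabp2 in the control mice and lowest in TAI/IVIg mice 2 and 3, which hold the highest Fabp1 (4870 and 4182 FPKM).

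Genes that mark positions along the small intestine were chosen after their values were seen. Slc10a2, the bile acid transporter of the ileum, was at 64.9 to 138 FPKM in the control mice, 48.1 to 75.5 FPKM in the TAI mice and 11.0 to 29.5 FPKM in the TAI/IVIg mice, and fell in TAI/IVIg against control (-2.29, SE 0.38, limma adjusted p = 0.00208). Lct, the lactase gene of the proximal and middle small intestine, was at 4.82 to 16.6 FPKM in control, 106 to 210 FPKM in TAI and 216 to 343 FPKM in TAI/IVIg, and rose in both (4.13 and 4.99, limma adjusted p = 0.000507 and 0.000153). Gata4, a transcription factor of the proximal intestine, was present in all mice, at 16.9 to 22.6, 11.1 to 16.7 and 16.8 to 22.2 FPKM in the 3 groups. The labels name jejunum for all samples, while Fabp6 and Slc10a2 are known chiefly from the ileum. The part of the sampled position in the values of Fabp1, Fabp2 and Fabp6, and of every other gene compared between groups here, was not tested.

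Cd36 (ENSMUSG00000002944, chr5:17781690-17888801, minus strand) encodes a membrane receptor that takes up long-chain fatty acids, and showed the largest fold change of the 8 genes in TAI against control. It was at 3.88, 6.29 and 6.08 FPKM in the control mice, 16.6, 28.0 and 25.8 FPKM in the TAI mice, and 26.7, 29.1 and 39.8 FPKM in the TAI/IVIg mice. The lowest irradiated mouse was above the highest control mouse, and TAI and TAI/IVIg overlapped. Cd36 rose 4.33 times in TAI (log2 fold change 1.92, SE 0.25, limma adjusted p = 0.0012) and 5.89 times in TAI/IVIg (2.36, SE 0.25, limma adjusted p = 0.000365). The difference between TAI/IVIg and TAI was 0.44 (95% interval -0.12 to 1.00, limma adjusted p = 0.449). Among 9 tested genes for other fatty acid transporters and activating enzymes, 0 were called higher and 1 lower in TAI. That was Got2, a mitochondrial aminotransferase also described as a fatty acid binding protein of the plasma membrane, which fell from 12.2 ± 3.14 to 4.86 ± 0.0717 FPKM (log2 fold change -1.14, SE 0.24, limma adjusted p = 0.00767). Acsl3, an acyl-CoA synthetase, had the smallest p among the higher values, at 0.33 (SE 0.17, limma adjusted p = 0.16). Its result depended on scaling, and it was called higher at equal library medians (0.61, limma adjusted p = 0.0189). It was also called with quantile normalization (limma adjusted p = 0.0137) and with voom and median-ratio library sizes (adjusted p = 0.0167). Slc27a4, the main fatty acid transport protein of the enterocyte, was at 191 to 277 FPKM in the control mice and 208 to 317 FPKM in the TAI mice. In TAI/IVIg against control its log2 fold change was 0.31 (limma adjusted p = 0.229). At equal library medians that was 0.91 (limma adjusted p = 0.0444), and with quantile normalization 0.36 (limma adjusted p = 0.174). TAI/IVIg had 1 gene of this list called higher and 2 lower than control, and at equal library medians 4 higher and 1 lower. In TAI the counts at equal library medians were 1 higher and 1 lower.

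Ppara itself (ENSMUSG00000022383, chr15:85734983-85802819, plus strand) had the lowest mean level of the 8 genes in each group and did not pass the test in any comparison. It was at 2.07, 2.83 and 1.75 FPKM in the control mice, from 138, 192 and 116 reads. The TAI mice had 1.69, 1.63 and 2.29 FPKM (111, 102 and 160 reads) and the TAI/IVIg mice 0.899, 2.35 and 1.68 FPKM (62, 153 and 108 reads). All 3 groups overlapped. The log2 fold change was -0.16 in TAI against control (95% interval -0.67 to 0.35, limma adjusted p = 0.609), and 0.06, 0.01 and 0.08 with library medians set equal, quantile normalization and voom with median-ratio library sizes. In TAI/IVIg against control it was -0.31 (95% interval -0.82 to 0.20, limma adjusted p = 0.282), and 0.06 and 0.11 with equal medians and quantile normalization. The intervals reach from -0.82 to 0.35, so a change of that size could not be told from none with 3 mice a group.

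Of 19 tested genes for other nuclear receptors and cofactors, 2 were called higher and 2 lower in TAI against control. Ppard, the receptor PPAR-delta, which binds the same element, rose from 6.57 ± 0.685 to 15.4 ± 1.55 FPKM (log2 fold change 1.12, SE 0.13, limma adjusted p = 0.00101) and was at 14.5 ± 1.57 FPKM in TAI/IVIg (1.03 against control, limma adjusted p = 0.000843). Nrip1, a corepressor of nuclear receptors, rose by 0.49 (SE 0.14, limma adjusted p = 0.0253). Nr1h4, the bile acid receptor FXR, fell from 47.4 ± 5.02 to 21.7 ± 2.73 FPKM (-1.09, SE 0.14, limma adjusted p = 0.00127). Ppargc1b, a coactivator of mitochondrial genes, fell from 1.81 ± 0.272 to 0.425 ± 0.129 FPKM (-0.98, SE 0.19, limma adjusted p = 0.0055). TAI/IVIg had 1 gene of the list higher and 5 lower than control. At equal library medians these counts were 5 and 2 in TAI and 8 and 2 in TAI/IVIg.

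Cpt1a (ENSMUSG00000024900, chr19:3322334-3385733, plus strand) encodes the carnitine palmitoyltransferase that commits long-chain fatty acids to mitochondrial oxidation. Its level was 20.3, 18.8 and 24.6 FPKM in the control mice, 7.57, 8.49 and 7.46 FPKM in the TAI mice, and 4.86, 7.83 and 4.22 FPKM in the TAI/IVIg mice. Every irradiated mouse had less than any control mouse, and TAI/IVIg mouse 2 lay within the TAI range while the other 2 TAI/IVIg mice lay below it. The mean in TAI was 0.369 of the control mean, a log2 fold change of -1.32 (SE 0.20, limma adjusted p = 0.00216), and that in TAI/IVIg 0.266 of it, -1.77 (SE 0.20, limma adjusted p = 0.000471). The difference of TAI/IVIg from TAI was -0.45, with a 95% interval from -0.90 to 0.0029 (limma adjusted p = 0.389). Cd36, Cpt1a and Creb3l3 stayed called under all 17 alternatives in both comparisons with control.

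Of 20 tested genes listed for mitochondrial fatty acid oxidation, 2 were called higher and 11 lower in TAI against control. In that comparison 8.81% of all genes tested were higher and 26.1% lower. The median log2 fold change of the 20 listed genes was -0.57, against -0.235 for all genes tested. Cpt2, the carnitine palmitoyltransferase of the inner membrane, fell from 62.6 ± 5.44 to 25.1 ± 4.56 FPKM (-1.30, SE 0.17, limma adjusted p = 0.0012). Acadl, the long-chain acyl-CoA dehydrogenase, fell from 327 ± 49.2 to 142 ± 12.8 FPKM (-1.19, SE 0.15, limma adjusted p = 0.00118), and Etfa, which takes up its electrons, by 1.14 on the log2 scale (SE 0.12, limma adjusted p = 0.000621). Acad11 rose from 2.96 ± 1.09 to 6.00 ± 0.00398 FPKM (0.86, SE 0.21, limma adjusted p = 0.0156), and Cpt1c, a relative of Cpt1a better known from neurons, rose from 0.590 ± 0.0656 to 1.62 ± 0.144 FPKM (0.72, SE 0.15, limma adjusted p = 0.0079). TAI/IVIg had 2 higher and 9 lower than control, beside 9.06% and 37.4% of all genes tested. At equal library medians TAI had 3 higher and 6 lower genes, and TAI/IVIg 4 higher and 2 lower.

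Peroxisomal genes, which shorten very long and branched fatty acids, had 5 of 15 tested called higher and 2 lower in TAI, and 6 higher and 0 lower in TAI/IVIg against control. Scp2, a thiolase and sterol carrier, rose from 103 ± 16.9 to 210 ± 9.35 FPKM (1.03, SE 0.16, limma adjusted p = 0.00267). Crot, which exports shortened chains as carnitine esters, rose from 12.9 ± 1.66 to 34.4 ± 6.63 FPKM (1.34, SE 0.23, limma adjusted p = 0.00371), and Acox2, an acyl-CoA oxidase for branched chains, by 1.23 on the log2 scale (SE 0.29, limma adjusted p = 0.0124). Abcd3, a peroxisomal importer, and Decr2 fell by 0.67 and 0.53 on the log2 scale (limma adjusted p = 0.0328 and 0.0415), calls that were lost with library medians set equal, when the list had 5 higher and 0 lower.

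Ketone body genes had 0 of 6 called higher and 4 lower in each comparison with control. At equal library medians these were 0 and 3 in TAI and 1 and 2 in TAI/IVIg. Bdh1 fell from 21.7 ± 3.03 to 8.89 ± 0.795 FPKM (-1.19, SE 0.21, limma adjusted p = 0.00408), Oxct1 by 1.04 on the log2 scale (SE 0.18, limma adjusted p = 0.00411) and Acat1 by 0.95 (SE 0.18, limma adjusted p = 0.0051), all in TAI. Of the omega-oxidation genes, 4 of 10 were tested and 0 called, though at equal library medians 2 were called higher in TAI/IVIg against control. Cyp4f13 stood 0.23 above control on the log2 scale (limma adjusted p = 0.341), and Cyp4f16 at -0.95 (SE 0.34, limma adjusted p = 0.0564). The Cyp4a genes, strong PPAR-alpha targets in liver, were below the filter.

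Of 10 other PPAR-alpha targets tested, 1 was called higher and 5 lower in TAI, and 1 higher and 4 lower in TAI/IVIg against control. Vnn1, a pantetheinase, rose from 79.6 ± 24.2 to 220 ± 13.0 FPKM (limma adjusted p = 0.00123). Plin2, which coats lipid droplets, fell from 30.2 ± 3.55 to 14.6 ± 2.98 FPKM (-1.01, SE 0.17, limma adjusted p = 0.00322). Ucp2 and Hilpda fell by 0.74 and 0.64 on the log2 scale (limma adjusted p = 0.00443 and 0.0417). With library medians set equal, this list had 3 genes higher and 1 lower in TAI, and neither Ucp2 nor Hilpda was called.

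Over all 10 lists, 102 of the 126 genes in the table were tested. In TAI against control 12 were called higher and 32 lower, beside 8.81% and 26.1% of all genes tested. In TAI/IVIg against control 13 were higher and 35 lower, beside 9.06% and 37.4%. The median log2 fold change of the 102 genes was -0.29 in TAI, near that of all genes tested. At equal library medians TAI had 19 higher and 18 lower genes, and TAI/IVIg 33 higher and 14 lower. Over all 13056 genes tested, that scaling called 1817 higher and 1687 lower in TAI, and 2707 and 1994 in TAI/IVIg.

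**Figure D3:**
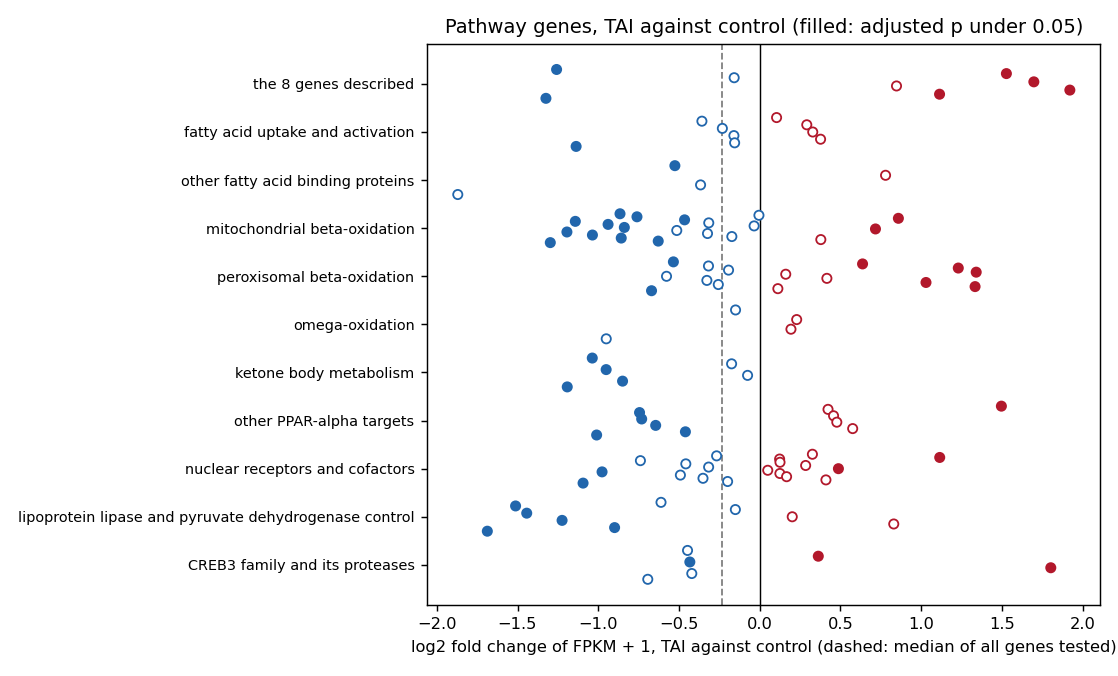
Log2 fold change of FPKM + 1 in TAI against control for the 8 genes and for each tested gene of the 10 pathway lists (1 point a gene, red higher and blue lower, filled where the limma adjusted p is under 0.05); the dashed line marks the median of all genes tested, -0.235. The filled points of mitochondrial beta-oxidation and ketone body metabolism lie mostly below 0, and those of peroxisomal beta-oxidation mostly above.

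Pdk4 (ENSMUSG00000019577, chr6:5483351-5496309, minus strand) encodes a kinase that switches off pyruvate dehydrogenase, and is induced by fasting, glucocorticoids and PPAR ligands. It was at 7.41, 1.72 and 7.32 FPKM in the control mice, 7.70, 8.05 and 13.1 FPKM in the TAI mice, and 10.9, 9.60 and 3.57 FPKM in the TAI/IVIg mice. Every TAI mouse was above every control mouse, though by little for control mice 1 and 3, and the TAI/IVIg mice overlapped both groups. With Pdk4, 5 of the 8 genes had TAI mice all above the control mice and 2 all below, beside 15.1% and 38% of all genes tested. In TAI/IVIg against control these counts were 4 and 2, beside 11.5% and 44.3%, and in TAI/IVIg against TAI 0 and 0, beside 3.09% and 16.1%. The log2 fold change of Pdk4 was 0.85 in TAI (95% interval -0.28 to 1.97, limma adjusted p = 0.212) and 0.53 in TAI/IVIg (-0.59 to 1.66, limma adjusted p = 0.395), neither past the threshold. Without control mouse 2 these were 0.31 and -0.01. Control mouse 2 also had the lowest summed FPKM of 6 glucocorticoid response genes, 49.8, where the other control mice had 109 and 106, the TAI mice 165 to 312 and the TAI/IVIg mice 193 to 233. The part of glucocorticoids in the Pdk4 values was not tested.

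Angptl4 (ENSMUSG00000002289, chr17:33773750-33781830, minus strand) encodes a secreted inhibitor of lipoprotein and pancreatic lipase. It was at 23.4, 20.2 and 19.4 FPKM in the control mice, 5.57, 7.32 and 13.0 FPKM in the TAI mice, and 3.89, 9.52 and 3.30 FPKM in the TAI/IVIg mice. All irradiated mice lay below all control mice, and TAI mouse 3 was the highest of them. Angptl4 fell to 0.412 of the control mean in TAI (log2 fold change -1.26, SE 0.36, limma adjusted p = 0.0269) and to 0.266 of it in TAI/IVIg (-1.86, SE 0.36, limma adjusted p = 0.00388). The difference between TAI/IVIg and TAI was -0.60 (95% interval -1.42 to 0.22, limma adjusted p = 0.478). The call in TAI was lost when control mouse 1, 2 or 3 or TAI mouse 1 or 2 was left out (adjusted p from 0.0626 to 0.102), with no filter (0.0674) and at equal library medians (-0.94, adjusted p = 0.0703). TAI mouse 3 also had a summed FPKM of 398 over 6 adipocyte genes, where the other mice had 6.84 (TAI/IVIg mouse 3, the lowest) to 70.9. None of the 6 was at 0 in every mouse, and Lep was at 0 in control mouse 1 and TAI/IVIg mouse 3. Adipocytes express Angptl4, and without TAI mouse 3 its log2 fold change was -1.57. The part of fat tissue in the Angptl4 values was not tested. With both TAI mouse 3 and TAI/IVIg mouse 3 left out, a choice made after seeing the data, 2 of the 8 genes were called higher in TAI in place of 4, since Fabp1 (1.69, adjusted p = 0.0543) and Fabp2 (0.88, adjusted p = 0.13) no longer passed.

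**Figure D4:**
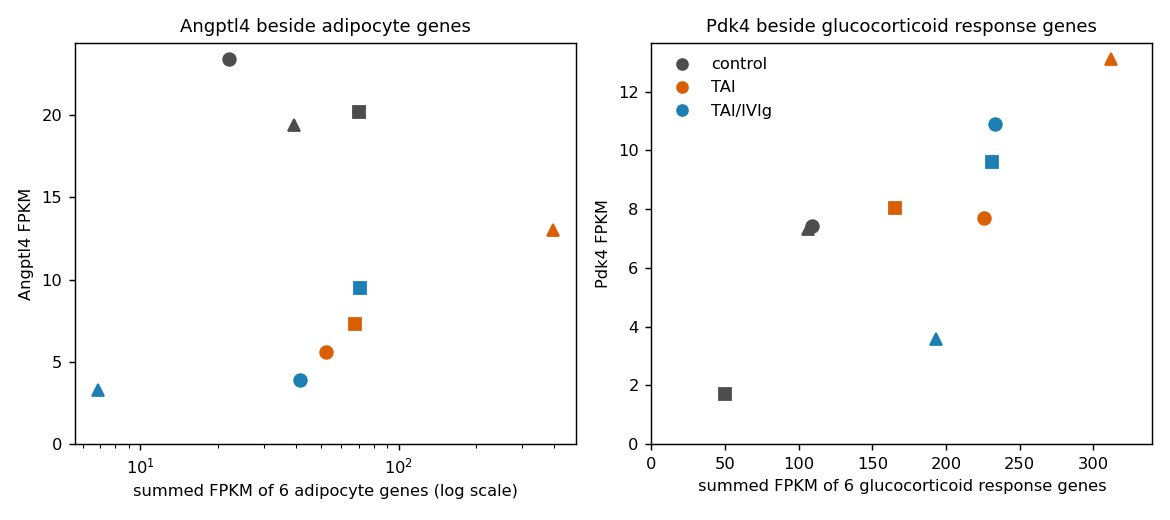
Left, Angptl4 FPKM against the summed FPKM of 6 adipocyte genes (log axis); right, Pdk4 FPKM against the summed FPKM of 6 glucocorticoid response genes; each point is a mouse, coloured by group, with circles, squares and triangles for mice 1, 2 and 3 of the group. TAI mouse 3 stands at the far right of both panels (398 and 312), and control mouse 2 at the lower left of the right panel (49.8 and 1.72 FPKM of Pdk4).

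Genes that act with Pdk4 and Angptl4, for lipoprotein lipase and pyruvate dehydrogenase control, had 0 of 9 called higher and 5 lower in TAI, and 0 higher and 6 lower in TAI/IVIg against control. Angptl8, a partner of the Angptl family in lipase inhibition, fell from 5.85 ± 0.708 to 1.12 ± 0.0990 FPKM (-1.69, SE 0.16, limma adjusted p = 0.000362). Pdk1 and Pdk3, the other pyruvate dehydrogenase kinases called, fell by 1.51 and 1.44 on the log2 scale (limma adjusted p = 0.00156 and 0.00337), where the estimate for Pdk4 was above 0. Lpl, the lipase itself, was 0.83 above control on the log2 scale (SE 0.56, limma adjusted p = 0.269) and was at 16.0 FPKM in TAI mouse 3 against 0.814 to 4.28 FPKM in the other mice.

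Creb3l3 (ENSMUSG00000035041, chr10:81084324-81098874, minus strand) encodes CREB-H and had the smallest SE of the 8 genes. It was at 108, 73.9 and 68.2 FPKM in the control mice, 277, 260 and 265 FPKM in the TAI mice, and 364, 271 and 310 FPKM in the TAI/IVIg mice. The TAI mice lay close together and far above the highest control mouse, and TAI/IVIg mouse 2 lay within their range while the other TAI/IVIg mice were above it. Creb3l3 rose 3.21 times in TAI (log2 fold change 1.70, SE 0.19, limma adjusted p = 0.000777) and 3.78 times in TAI/IVIg (1.93, SE 0.19, limma adjusted p = 0.000304). TAI/IVIg differed from TAI by 0.23 (95% interval -0.21 to 0.66, limma adjusted p = 0.593). Among 6 relatives and processing proteases, 2 were called higher and 1 lower in TAI, and 2 higher and 3 lower in TAI/IVIg against control. Creb3l2, a relative linked to secretory capacity, rose from 5.54 ± 1.02 to 21.7 ± 2.09 FPKM in TAI (1.80, SE 0.16, limma adjusted p = 0.000347) and to 31.8 ± 4.61 FPKM in TAI/IVIg (2.33, limma adjusted p = 8.86e-05). Creb3 rose by 0.36 (SE 0.12, limma adjusted p = 0.0432), and Mbtps2, the site-2 protease that releases these factors from the membrane, fell by 0.43 on the log2 scale (SE 0.14, limma adjusted p = 0.0381). The Mbtps2 call was lost at equal library medians (-0.22, limma adjusted p = 0.143) and with quantile normalization (limma adjusted p = 0.0527).

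**Figure D5:**
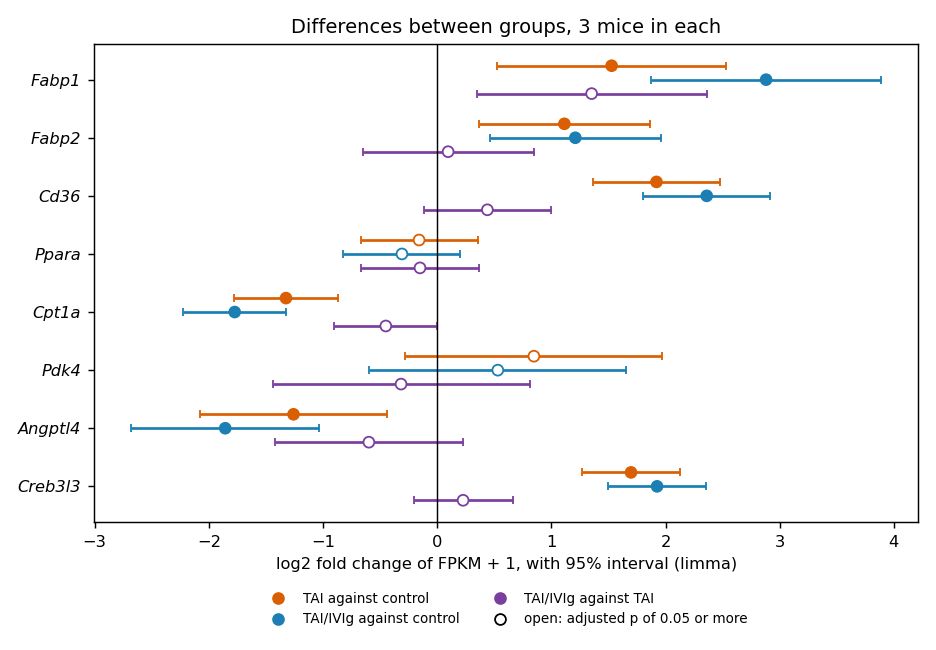
Log2 fold change of FPKM + 1 with its 95% interval (limma, 3 mice a group) for the 8 genes in the 3 comparisons; filled points have an adjusted p under 0.05. The intervals of TAI/IVIg against TAI include 0 for 7 genes and lie above 0 for Fabp1 (0.35 to 2.36), whose adjusted p is 0.354.

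Between TAI/IVIg and TAI, the pathway lists had 0 of 102 genes called and 16 with an unadjusted p under 0.05. Over all genes tested these shares were 0% and 12.9%. The smallest p-values were those of G0s2, an inhibitor of the lipase that opens fat stores, Mgll, which cleaves monoglycerides, and Fabp6. G0s2 was at 4.09 ± 1.37 FPKM in TAI and 1.82 ± 0.397 FPKM in TAI/IVIg (-0.83, unadjusted p = 0.00432, limma adjusted p = 0.353). Mgll was at 6.25 ± 0.787 and 3.22 ± 0.990 FPKM (-0.80, unadjusted p = 0.00449, limma adjusted p = 0.353). Both genes are also expressed in fat, and the summed adipocyte genes were 52.2, 67.6 and 398 FPKM in the TAI mice and 41.5, 70.9 and 6.84 FPKM in the TAI/IVIg mice. The part of fat tissue in these 2 differences was not tested.

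By level in the control mice, Fabp2 came first, then Fabp1 and Creb3l3, with no overlap between these. Cpt1a (18.8 to 24.6 FPKM) and Angptl4 (19.4 to 23.4 FPKM) overlapped. Pdk4 (1.72 to 7.41 FPKM) overlapped both Cd36 and Ppara, and the Cd36 range lay above that of Ppara. In the TAI/IVIg mice Fabp2, Fabp1 and Creb3l3 kept the first places. Cd36 came next there (26.7 to 39.8 FPKM), above Pdk4, Cpt1a and Angptl4, which overlapped. Ppara was last in mean level, and none of its mice reached the lowest value of those 3 genes.

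Markers of enterocytes and of other cell types were detected. Summed FPKM of 10 enterocyte genes, which include none of the 8, was 7566 to 11922 in control, 17442 to 25509 in TAI and 23319 to 27229 in TAI/IVIg. Of these genes 5 were called higher and 0 lower in TAI, and 6 and 0 in TAI/IVIg against control. The shares of all genes tested were 8.81% and 26.1% in TAI, and 9.06% and 37.4% in TAI/IVIg. The summed FPKM of 6 general epithelial genes was 5159 to 6298, 5593 to 6386 and 5126 to 7421. Of these 6 genes, 0 were called higher and 2 lower in TAI, and 2 higher and 3 lower in TAI/IVIg against control. Smooth muscle genes summed to 342 to 462, 407 to 589 and 87.8 to 421 FPKM, although the labels name epithelial tissue. The summed level of goblet cell genes was 2097 to 2867, 3437 to 4351 and 1963 to 3362 FPKM, of macrophage genes 109 to 120, 88.1 to 105 and 49.2 to 95.1 FPKM, and of endothelial genes 14.2 to 24.4, 21.1 to 28.1 and 10.1 to 17.6 FPKM. Liver genes summed to 8.63 to 20 FPKM in all mice but TAI mouse 3 (102), where Cyp2e1, which fat also expresses, gave 95.5 FPKM. Goblet cell genes had 3 of 6 called higher and 1 lower in TAI, and 0 higher and 2 lower in TAI/IVIg against control. Macrophage genes had 0 higher and 1 lower in each comparison with control, and smooth muscle and endothelial genes 0 called. The part of cell composition in the changes of the 8 genes was not tested.

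The genes whose log2(FPKM + 1) followed each of the 8 most closely over the 9 mice are given by Pearson's r as a description, since the mice share the group differences. For Fabp1 they were Gstm6 (0.986) and the gene ENSMUSG00000117920 (0.982), and for Fabp2 Chp1 (0.98) and Tpd52 (0.979). For Cd36 they were Gm14597 (0.987) and Proz (0.983), and for Creb3l3 Selenoi (0.996) and Clec2e (0.994). Cpt1a was followed by Vps11 (0.995) and Gm12960 (0.994), Angptl4 by Aifm2 (0.974) and C330007P06Rik (0.973), Ppara by Sh3glb2 (0.954) and 0610040J01Rik (0.92), and Pdk4 by Gm43681 (0.919) and Trim30d (0.884). The lowest of these values were those of Ppara and Pdk4, the 2 genes that did not pass the test between groups.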

How the data were processed

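Jejunal RNA of 9 mice was sequenced, and the authors deposited 1 column of FPKM for each mouse. Per the labels, the submitters' processing notes name FastQC, Trimmomatic, STAR, featureCounts and DESeq2, without versions, and the builds mm10 and GRCm38. The gene lengths behind the FPKM values equalled the summed exon lengths of GENCODE M21 for 97.5% of the 31146 identifiers found there, including the 8 genes, so GRCm38 coordinates are from that annotation. All 31685 genes gave whole reads (100% of genes within 0.001 of a read, 281 after a common factor), which gave the depth.

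FPKM values were used as the authors scaled them. The linear model of log2(FPKM + 1) held the group of all 9 mice and used a trended empirical Bayes step (limma 3.58.1, R 4.3.3). The script was tested on simulated data. Labels do not say what a shared mouse number marks. Deviations of same-numbered mice from their group means correlated between control and TAI (0.241 to 0.308), but not throughout between TAI/IVIg and the others (-0.296 to 0.201). The block nonetheless used the mouse number in every group, TAI/IVIg included. The fit reported has no block. Labels do not state whether a library pooled animals, so p-values measure the spread between these samples. All 9 columns were used (0 left out). Recovered reads were tested with voom, and DESeq2 and edgeR were not run here. Alternatives changed the pseudocount (0.1), the filter (none, or at least 5 FPKM on average) or the scaling (equal library medians, or quantiles), dropped the trend, fitted just the 6 mice of a comparison, blocked on replicate number, applied voom to recovered reads under both kinds of library size (totals or median ratios), or left out a mouse. Leaving out TAI mouse 3 and TAI/IVIg mouse 3 together was added after seeing the data.

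The 8 genes, the lists and the tests were chosen with earlier results of these data known. The text names all 8 genes, up to 3 genes a direction of each pathway list with the smallest adjusted p in TAI against control (the smallest unadjusted p, as values, where none passed), the 3 smallest p-values in TAI/IVIg against TAI, and for each of the 8 genes the 2 most similar genes. Slc27a4, Lep and Cyp2e1 were named after their values were seen. A withheld item is not reported here.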

Additional observations from a re-analysis of the deposited data

How the results depend on the processing

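Cd36, Cpt1a and Creb3l3 kept their direction and their call against control under all 17 alternatives, and so did Fabp1 and Angptl4 in TAI/IVIg against control. In TAI against control Fabp1 was called in 11 of 17, Angptl4 in 10 and Fabp2 in 8. The cause of these losses was not tested. The 4 of the 8 genes called higher in TAI became 2 with no filter and 2 without TAI replicate 3 and TAI/IVIg replicate 3, and the 2 called lower became 1 with no filter and 1 with library medians set equal. Leaving out each mouse in turn gave 2 to 4 higher and 1 to 2 lower.

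Pathway genes depended on scaling. In TAI against control, 12 higher became 19 with medians set equal, 21 with quantile normalization, 20 with voom and median-ratio library sizes, and 6 without TAI replicate 3 and TAI/IVIg replicate 3, with 6 to 11 when 1 mouse was left out, lowest without TAI mouse 1. The 32 lower became 18 with medians set equal, and 20 to 27 with 1 mouse left out, 20 without control mouse 2 and 21 without TAI mouse 1. In TAI/IVIg against control, 13 higher became 33, 25 and 31 under the 3 scalings in that order, and 35 lower became 14, 19 and 17, and 22 with a mean FPKM of at least 5. Over all genes tested, 1150 higher and 3411 lower in TAI became 1817 and 1687 with medians set equal, and 1183 and 4880 in TAI/IVIg became 2707 and 1994. That scaling moved the median log2 fold change from -0.235 to 0.03 and from -0.39 to 0.05.

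For the 8 genes, the directions that turned were of values that did not pass the test. Leaving out each mouse in turn gave Fabp2 in TAI/IVIg against TAI from -0.17 (without TAI mouse 2) to 0.332 (without TAI mouse 3), with -0.0062 without TAI/IVIg mouse 1. It gave Pdk4 from -0.0082 (without control mouse 2) to 0.96 against control and from -0.57 to 0.12 (without TAI/IVIg mouse 3) against TAI, and Ppara against TAI from -0.34 to 0.069 (without TAI/IVIg mouse 1). Without both mice numbered 3, Pdk4 against TAI was 0.34 and Fabp2 0.404. Ppara in TAI against control was 0.0633, 0.0146 and 0.0798 under the 3 scalings. In TAI/IVIg against control it was 0.0631 and 0.108 under the first 2, and against TAI 0.0931 under quantile normalization. Ppara has no value at a mean FPKM of at least 5. Quantile normalization ended both Fabp2 calls against control. Of the pathway genes called, Med1, chosen after its values were seen, turned from -0.51 to 0.0057 in TAI/IVIg against control with medians set equal.

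With a replicate block 3 of the 8 genes were called higher and 2 lower in TAI, with Fabp2 at an adjusted p of 0.0516, and no other call of the 8 genes changed. Ppara rested on 62 to 192 reads a mouse, and the part of depth in its values was not tested.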

Other observations

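The 8 genes were also compared with each other over the 9 mice, as a description, since the mice share group differences. Creb3l3 and Cpt1a ran in opposite directions (Pearson's r of -0.959), Cpt1a and Angptl4 together (0.921), and Fabp2 and Creb3l3 together (0.916). For deviations from the group means these values were -0.479, 0.612 and 0.561. Ppara and Angptl4 had 0.673 over the mice and 0.641 for the deviations, Fabp1 and Cpt1a -0.82 and 0.327, and Cd36 and Creb3l3 0.906 and -0.597.

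The summed FPKM of the 8 genes, most of it Fabp2, was 7409 to 11902 in the control mice, 15192 to 27932 in the TAI mice and 23106 to 25526 in the TAI/IVIg mice.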
